A study of Mus musculus with 8 samples.

Results

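Arg1, Chil3 and 7 further genes that mark alternatively activated or tissue-repairing macrophages were followed in mouse kidney after ischemia-reperfusion (I/R): Mrc1, Trem2, Gpnmb, Folr2, F13a1, Igf1 and Il4ra. The 9 genes were chosen by name, with earlier results of these data known. Each was found among the 25239 gene symbols of the count table. All 9 passed the filter on low counts and entered the test over 15000 genes. The series holds 8 kidney RNA-seq libraries, 4 from wild-type mice (control 1 to 4) and 4 from mice with a myeloid FoxO1 knockout (knockout 1 to 4), all after I/R. The knockout mice carried FoxO1flox/flox and a tamoxifen-dependent Cre recombinase under Lyz2 (Lyz2-CreERT2), and tamoxifen at 75 mg per kg was given on 5 days at 8 to 10 weeks of age. The same protocol text stands for all 8 libraries, with no separate statement that the wild-type mice were given tamoxifen or carried Cre. In all groups the right kidney was removed, blood flow to the left one was stopped with clamps for 35 minutes, and RNA was taken after collagenase digestion of the tissue. The time from reperfusion to collection is not given in the sources used here, and no uninjured kidney was analysed here.

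Macrophages that receive interleukin 4 (IL-4) or interleukin 13 switch on a set of genes through the shared receptor chain encoded by Il4ra and the transcription factor STAT6. In the mouse, Arg1 and Chil3 are the classical genes of this state, and Mrc1 encodes the mannose receptor used as its surface marker. After kidney injury, inflammatory macrophages are followed by cells that clear debris and release growth factors, and the other genes here (Trem2, Gpnmb, Folr2, F13a1, Igf1) are used as labels for such cells. None of the 9 is restricted to macrophages: Arg1 is also a urea cycle enzyme of liver, Chil3 and Arg1 are also made by neutrophils, Igf1 by stromal cells, F13a1 by megakaryocytes and monocytes, Gpnmb by other injured cells, and Il4ra by many cell types. The libraries are of whole tissue, so fewer cells of a type and less RNA per cell cannot be told apart.

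Library totals ran from 29044405 to 35530421 counts, and Lrp2, Umod, Aqp2 and Nphs1, markers of 4 parts of the nephron, were present in every library (at least 13.6 CPM, counts scaled to a library of 1000000). Their levels differed between the groups. Lrp2 ran at 303 to 712 CPM in controls and 923 to 1140 CPM in knockouts, and Umod at 1977 to 3386 and 5128 to 6020 CPM. Nphs1 ran at 13.6 to 18.8 and 20.3 to 23.4 CPM, and Aqp2, which overlapped, at 188 to 780 and 758 to 1513 CPM. The part of this shift in the values of the 9 genes was not tested. Foxo1, the targeted gene, had 33.0 to 34.5 CPM in controls and 39.3 to 42.9 CPM in knockouts. The difference of 0.29 on the log2 scale (SE 0.09, adjusted p in edgeR = 0.0647) is one of whole tissue and does not check deletion in myeloid cells. Lyz2, the gene whose regulatory region drives Cre, had 81 counts in control 1 and 13 counts in knockout 3, against 844 to 1610 counts in the other 6 libraries. This split does not follow the groups, and whether the labels of control 1 and knockout 3 are right was not tested, so both stand here as labelled. Control 1 stood apart for the genes described here and held the highest of the 8 values in 7 of the 9 genes, a position it held in 24.8% of all genes tested. The values of the 9 genes are therefore given with and without it, and those of other genes where it ends a call or moves a value widely.

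The sequences just before the starts of the genes are shown because several of these genes were high in the same library. RefSeq promoters (build GRCm38.p6, while the build named for the counts is mm39) were found for 8 of the 9 genes, 10 starts in all, and not for Arg1. The 250 bases before each start were searched on both strands for the core of the FoxO element (GTAAACA), for the STAT6 element (TTC and GAA held 4 bases apart) and for the core of the element bound by PU.1, a factor of myeloid genes (AGGAAGT, chosen after the sequences were seen). The FoxO letters were in 0 of the 10 windows and in 3.17% of 32851 windows over all genes, and the STAT6 letters were in 0 of 10 and in 5.85%. The PU.1 letters were in 4 of 10 windows, of Chil3, Mrc1, Folr2 and F13a1, against 7.69% of all windows. Because these letters were chosen from the same windows, the comparison with all windows carries no weight as a test. The 3 windows below belong to Chil3 (chr3:106167565-106167814, minus strand), Mrc1 (chr2:14229164-14229413, plus strand) and F13a1 (chr13:37049214-37049463, minus strand), written 5′ to 3′ with the PU.1 letters of either strand in capitals.
Chil3: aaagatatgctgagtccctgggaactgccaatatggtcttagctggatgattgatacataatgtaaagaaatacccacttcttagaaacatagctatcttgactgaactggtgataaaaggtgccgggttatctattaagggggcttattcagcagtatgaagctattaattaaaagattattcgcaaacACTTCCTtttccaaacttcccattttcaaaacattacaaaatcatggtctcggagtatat
Mrc1: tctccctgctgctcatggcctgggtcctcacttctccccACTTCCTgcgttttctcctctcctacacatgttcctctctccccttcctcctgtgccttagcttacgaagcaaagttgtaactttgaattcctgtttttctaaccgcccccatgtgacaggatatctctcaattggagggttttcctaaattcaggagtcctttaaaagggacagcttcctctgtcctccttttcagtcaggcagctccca
F13a1: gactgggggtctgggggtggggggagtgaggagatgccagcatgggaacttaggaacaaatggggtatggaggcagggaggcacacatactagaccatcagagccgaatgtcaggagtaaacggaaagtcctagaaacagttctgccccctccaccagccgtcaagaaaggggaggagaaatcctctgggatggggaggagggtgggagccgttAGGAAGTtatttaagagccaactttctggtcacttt
A match of letters is a description of the window and not a binding site, and a window without them says nothing of the factor.

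The first comparison asked whether these genes differed between control and knockout kidneys after I/R. Arg1, the arginase that turns arginine into ornithine, and Chil3, a chitinase-like protein secreted by alternatively activated macrophages, were lower in the knockout. Of the 9 genes, 2 were called lower at an adjusted p under 0.05 (edgeR), where 6.28% of all genes tested were called lower. The count called higher was 0 (0 at an unadjusted p under 0.05), against 6.45% of all genes (14.5% at the unadjusted level). DESeq2 called 6 of the 9 lower (8.77% of all genes) and 0 higher (9.60%). In limma voom 0 were called lower (6.20%) and 0 higher (7.19%). At an unadjusted p under 0.05, voom had 5 of the 9 lower and 1 higher, with no share of all genes taken at that level. In edgeR an unadjusted p under 0.05 was reached by 7 of the 9, all lower, against 14.6% of genes lower at that level. The median log2 fold change of the 9 was -0.98, against -0.01 for all genes tested, and -0.63 without control 1. The number called lower was 2 without control 1 (5.00% of all genes), 3 without control 2 (6.47%), 1 without control 3 (3.54%), 3 without control 4 (4.97%), 1 without knockout 3 (3.71%) and 0 without knockout 1, knockout 2 or knockout 4 (6.14%, 3.41% and 2.97%). With control 1 and knockout 3 both removed it was 1 (3.30%). Only Arg1 and Il4ra had groups that did not overlap, 2 of 9 beside 10.6% of all genes with all knockouts below all controls, and 0 had all knockouts above all controls, beside 11.1%.

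Arg1 measured 39.8, 6.54, 11.1 and 3.50 CPM across controls 1 to 4, while knockouts 1 to 4 gave 1.22, 1.91, 2.88 and 1.33 CPM. Every knockout lay below every control, and within the controls the level ranged over 11.4-fold, with control 1 highest and control 4 lowest. Mean levels were 15.3 ± 16.7 CPM in controls and 1.84 ± 0.757 CPM in knockouts (SD, n = 4 each), 8.27-fold lower in the knockout (log2 fold change -3.05, SE 0.70, adjusted p in edgeR = 0.0207). Without control 1 the control mean was 7.06 ± 3.85 CPM (SD, n = 3), and Arg1 was 3.83-fold lower (log2 fold change -1.94, SE 0.42, adjusted p in edgeR = 0.0186), still with no overlap. The call was lost without knockout 1, knockout 2 or knockout 4 (adjusted p = 0.0515, 0.0594 and 0.0694), with the size near that of all 8 libraries (-2.90, -3.06 and -2.92). Counts behind these values were 108 to 1418 in controls and 34 to 102 in knockouts.

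Chil3 measured 73.7, 10.7, 8.90 and 4.41 CPM across controls 1 to 4, while knockouts 1 to 4 gave 2.95, 4.46, 4.23 and 2.55 CPM. Control 1 was 6.86 times the next control, and control 4 lay just below knockout 2, so the groups overlapped. Means came to 24.4 ± 32.9 and 3.55 ± 0.940 CPM (SD, n = 4 each), 6.87-fold lower in the knockout (log2 fold change -2.78, SE 0.79, adjusted p in edgeR = 0.0449). Without control 1 the difference was 2.26-fold (log2 fold change -1.18, SE 0.33, adjusted p = 0.0480), and with knockout 3 removed as well it was -1.27 on the log2 scale and missed the threshold (adjusted p = 0.0729). It also missed the threshold without control 3 (adjusted p = 0.0516) and when any 1 of the 4 knockouts was left out (adjusted p = 0.0942 to 0.123). Reads can be shared with the neighbouring family member Chil4: 18.5% of the 50-base windows of the Chil3 transcript also occur in Chil4, with an identical run of 136 bases. Chil4 had only 2 to 26 counts per library, and did not pass the filter on low counts.

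F13a1, the A subunit of coagulation factor XIII, which recruited monocytes and repair macrophages express, had the same shape across libraries. Controls 1 to 4 gave 25.9, 3.03, 4.55 and 1.75 CPM, and knockouts 1 to 4 gave 0.360, 1.45, 2.54 and 1.04 CPM. Control 1 again stood far above the rest, knockout 1 was lowest with 10 counts, and knockout 3 lay above control 4. The difference was 6.48-fold lower in the knockout and did not pass (log2 fold change -2.70, SE 0.86, adjusted p in edgeR = 0.0649), and without control 1 it was 2.30-fold (log2 fold change -1.20, SE 0.55, adjusted p = 0.198). It passed without control 2 or without control 4 (adjusted p = 0.0490 and 0.0430).

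**Figure D1:**
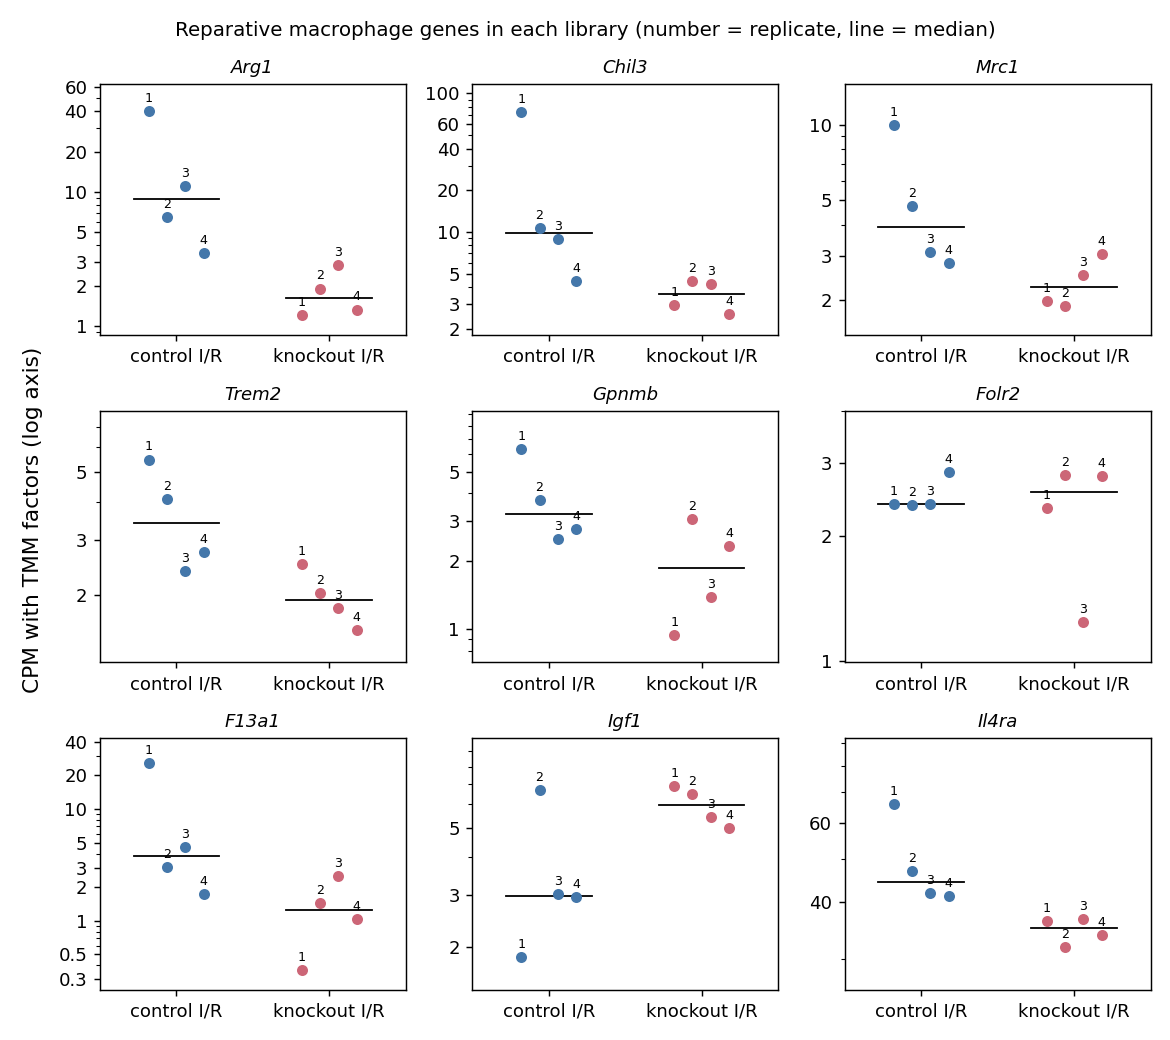
CPM of each of the 9 genes on a log axis, 1 point per library numbered by replicate, with the median of each group as a line. Control 1 is the highest of the 8 points for Arg1 (39.8 CPM), Chil3 (73.7 CPM), F13a1 (25.9 CPM), Mrc1, Trem2, Gpnmb and Il4ra, and the lowest for Igf1.

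Among the surface receptors, Il4ra, the chain through which IL-4 and interleukin 13 signal, was lower in the knockout without passing the test. It measured 66.0, 46.8, 42.0 and 41.3 CPM across controls 1 to 4, while knockouts 1 to 4 gave 36.4, 31.9, 36.8 and 33.8 CPM. All knockouts lay below all controls, also without control 1, but the difference was 1.41-fold and did not pass (log2 fold change -0.50, SE 0.16, adjusted p in edgeR = 0.0621). Without control 1 it was 1.25-fold (adjusted p = 0.0960), and DESeq2 called it (adjusted p = 0.0375).

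Mrc1, the mannose receptor gene, measured 9.98, 4.72, 3.12 and 2.82 CPM across controls 1 to 4, while knockouts 1 to 4 gave 1.98, 1.88, 2.51 and 3.05 CPM. The groups overlapped through knockout 4, and the log2 fold change of -1.13 (SE 0.41) did not pass (adjusted p in edgeR = 0.0947). Trem2, a lipid-sensing receptor of macrophages that engulf debris, measured 5.48, 4.07, 2.39 and 2.75 CPM across controls 1 to 4, while knockouts 1 to 4 gave 2.52, 2.03, 1.81 and 1.54 CPM. Only knockout 1 reached into the control range, and the log2 fold change was -0.90 (SE 0.32, adjusted p = 0.0905). Without control 1 the values were -0.59 for Mrc1 (adjusted p = 0.238) and -0.64 for Trem2 (adjusted p = 0.211).

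Gpnmb, a lysosome-associated membrane glycoprotein of lipid-laden macrophages, measured 6.27, 3.72, 2.50 and 2.79 CPM across controls 1 to 4, while knockouts 1 to 4 gave 0.936, 3.07, 1.38 and 2.34 CPM. Knockout 2 lay above controls 3 and 4, and the log2 fold change of -0.98 (SE 0.42) did not pass (adjusted p in edgeR = 0.154), nor did the value of -0.63 without control 1 (adjusted p = 0.359). Folr2, the folate receptor of resident tissue macrophages, measured 2.39, 2.38, 2.39 and 2.85 CPM across controls 1 to 4, while knockouts 1 to 4 gave 2.34, 2.81, 1.24 and 2.79 CPM. Knockouts 1 and 3 lay below every control, control 4 lay above every knockout, and the rest overlapped, and the log2 fold change of -0.12 (SE 0.30, adjusted p = 0.818) turned to 0.08 without knockout 3. Unlike for the other genes with a lower mean in the knockout, control 1 was not the highest control for Folr2.

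Igf1, which encodes insulin-like growth factor 1, was the single member with a higher mean in the knockout. It measured 1.85, 6.66, 3.00 and 2.95 CPM across controls 1 to 4, while knockouts 1 to 4 gave 6.91, 6.49, 5.44 and 4.98 CPM. The knockouts lay close together above 3 of the controls, while control 2 lay among them. The log2 fold change was 0.72 (SE 0.36, adjusted p in edgeR = 0.211), and without control 2 it was 1.19 (SE 0.27, adjusted p = 0.0202; 6.59% of all genes were called higher in that fit). It did not pass with any of the other 7 libraries left out (adjusted p = 0.264 to 0.366), with a value of 0.50 without control 1 (adjusted p = 0.356). Control 1, highest for 7 members, was lowest of the 8 libraries for Igf1.

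**Figure D2:**
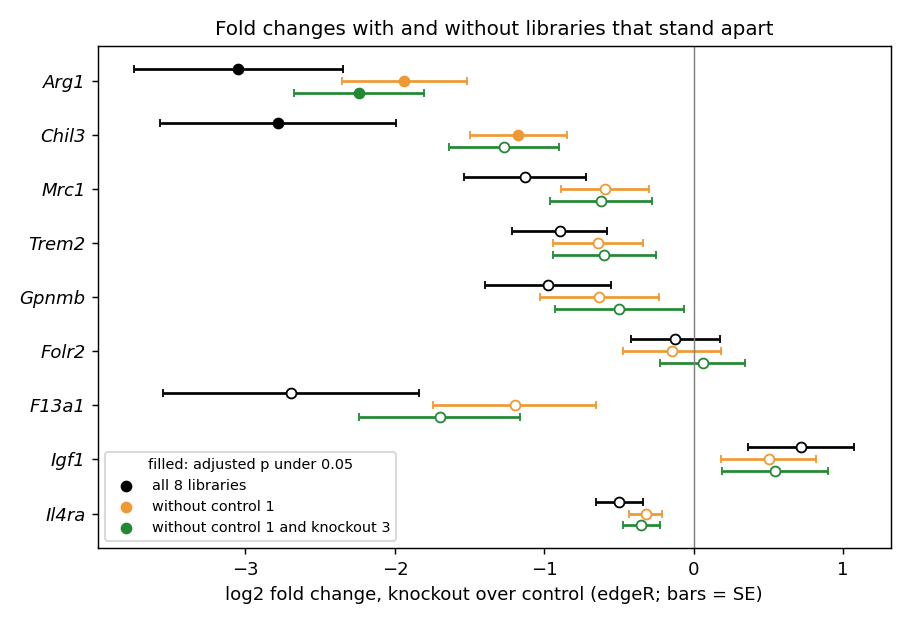
Log2 fold changes of the 9 genes, knockout over control, with SE bars, from edgeR on all 8 libraries (black), without control 1 (orange) and without control 1 and knockout 3 (green), filled where the adjusted p was under 0.05. Arg1 moves from -3.05 to -1.94 and Chil3 from -2.78 to -1.18 when control 1 is left out.

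Levels between genes were compared per gene length, as TPM (counts divided by gene length, then scaled to 1000000) computed from the deposited lengths. In controls the order of mean TPM was Chil3 (32.8 ± 46.8), Arg1 (21.1 ± 24.9), Il4ra (18.1 ± 6.10), Trem2 (6.17 ± 2.88), F13a1 (4.64 ± 6.38), Folr2 (3.56 ± 0.357), Gpnmb (1.95 ± 1.08), Mrc1 (1.91 ± 1.43) and Igf1 (0.814 ± 0.405). The single pair of neighbours in that order whose control libraries did not overlap was Il4ra and Trem2. In knockouts the order was Il4ra (12.95 ± 1.46), Chil3 (4.49 ± 1.28), Folr2 (3.35 ± 1.15), Trem2 (3.30 ± 0.339), Arg1 (2.45 ± 1.13), Igf1 (1.41 ± 0.0891), Gpnmb (1.01 ± 0.517), Mrc1 (0.876 ± 0.281) and F13a1 (0.689 ± 0.488; SD, n = 4 throughout). There, of neighbours, only Il4ra and Chil3 did not overlap. Arg1 and Chil3 thus ranked above Il4ra per length in the control means and below it in the knockout means, while in controls 2 to 4 Il4ra (14.0 to 15.8 TPM) was above Chil3 (5.05 to 11.96 TPM) and Arg1 (4.18 to 14.8 TPM) in the same library.

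General macrophage markers and further lists were measured beside these genes. Their counts are to be read beside the shares of all genes. In edgeR 6.28% of all genes were called lower and 6.45% higher, with 14.6% and 14.5% at the unadjusted level. The shares were 8.77% and 9.60% in DESeq2, and 6.20% and 7.19% in limma voom. At an unadjusted p under 0.05 in edgeR, 4 of the general markers were lower and 1 higher. DESeq2 called 3 lower and 1 higher, and limma voom 1 lower and 1 higher. Of the 16 markers tested, 2 fell in edgeR, 0 rose and 14 did not pass, with a median log2 fold change of -0.20, or -0.09 without control 1. The 2 that fell were Cd14, a co-receptor for bacterial lipopolysaccharide that injured tubules also express (log2 fold change -1.82, SE 0.21, adjusted p in edgeR = 0.00120), and Itgam, the integrin CD11b (-1.58, SE 0.43, adjusted p = 0.0384). Without control 1, Itgam was at -0.86 (adjusted p = 0.0205), and it lost its call when any 1 of the 4 knockouts was left out. Adgre1, which encodes F4/80, came to a log2 fold change of 0.29 (adjusted p = 0.454), and Csf1r, the receptor for macrophage growth factor, one of 0.60 (adjusted p = 0.0546; 0.0480 without control 1). The summed level of the 16 markers was 505 CPM in control 1, from 326 to 439 CPM across controls 2 to 4, and from 246 to 392 CPM across knockouts. Their part in the differences above was not tested. The marker mean described next includes Cd14 and Itgam, which fell themselves, so adjusting for it cannot measure that part.

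The level of each gene was set against the mean log2 CPM of 15 of these markers (all but Lyz2, because of its split within groups). On this scale Arg1 stood at 0.63, -1.50, -0.08 and -1.86 in controls 1 to 4 and at -3.75, -2.66, -1.99 and -3.10 in knockouts 1 to 4, again with no overlap and a difference of -2.18 (knockout minus control). For Trem2 the controls lay close together on this scale: controls ran from -2.27 to -2.17 and knockouts from -2.91 to -2.57. The Trem2 groups, which overlapped in CPM, did not overlap here, with a difference of -0.50. Igf1 also separated, at -3.75 to -1.47 in controls and -1.31 to -0.92 in knockouts, a difference of 1.18. The other 6 genes overlapped, with differences from -1.81 (F13a1) to 0.14 (Folr2), and Il4ra at -0.15. These are descriptions with no test, and the share of all genes that separate on this scale was not computed. When the marker mean was entered as a covariate in edgeR, 0 of the 9 genes passed, with 3.53% of all genes called lower in that fit. At an unadjusted p under 0.05, 2 were lower, with no share of all genes taken at that level. Arg1 then came to a log2 fold change of -2.17 (SE 0.66, adjusted p in edgeR = 0.0846) and Chil3 one of -1.18 (SE 0.58, adjusted p = 0.262).

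**Figure D3:**
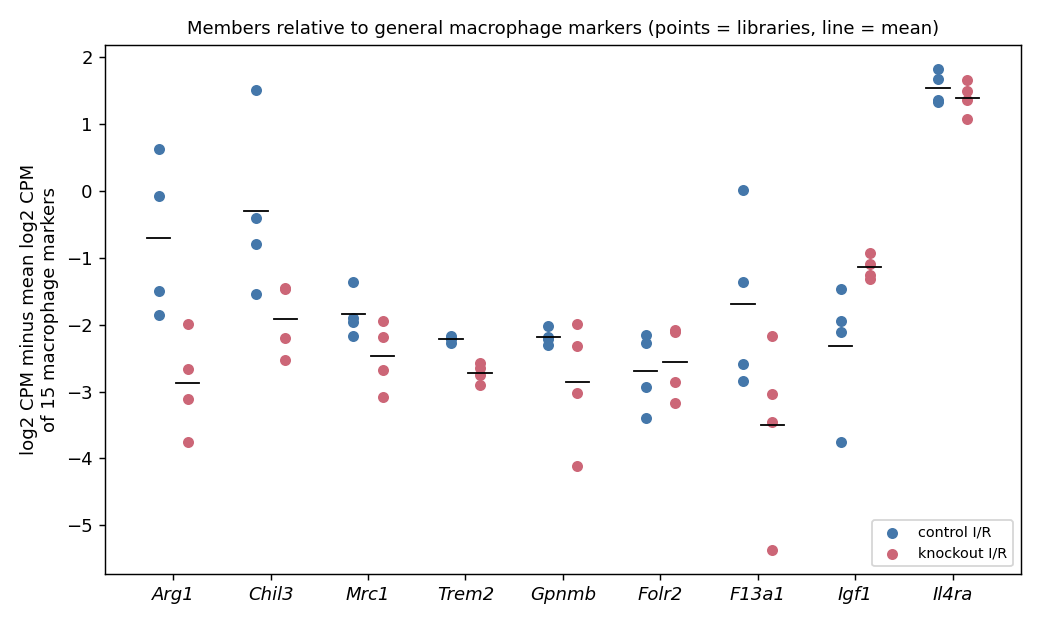
Log2 CPM of each gene minus the mean log2 CPM of 15 general macrophage markers, 1 point per library and a line at each group mean. The Trem2 controls lie within -2.27 to -2.17, above all Trem2 knockouts, and the Igf1 knockouts lie above all Igf1 controls.

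Markers of other cells that can make these genes were measured too. Of 9 neutrophil markers tested, 7 fell, 0 rose (0 at an unadjusted p under 0.05) and 2 did not pass. DESeq2 called 5 lower and 0 higher, and limma voom 4 lower and 0 higher. S100a8 and S100a9, which encode the calprotectin subunits, fell by 3.08 and 2.76 on the log2 scale (adjusted p in edgeR = 0.00749 and 0.0162), the protease gene Mmp9 by 2.71 (adjusted p = 0.0160) and the growth factor receptor gene Csf3r by 2.77 (adjusted p = 0.0237). Without control 1 these 4 stood at -2.31, -2.03, -1.71 and -1.61 and still passed, and the list median moved from -2.77 to -1.71. Mmp8, which did not pass, turned from -1.83 to 0.48. The summed level of the neutrophil list was 207 CPM in control 1, from 32.4 to 57.9 CPM across controls 2 to 4, and from 7.84 to 20.1 CPM across knockouts, so neutrophil markers moved with Arg1 and Chil3 both between the groups and in control 1. Of 12 genes of recruited monocytes 1 fell, beside 6.28% of all genes called lower. It was Ccr2, the receptor that brings monocytes out of the marrow (log2 fold change -2.39, SE 0.66, adjusted p in edgeR = 0.0404). Ccr2 stood at 28.9 CPM in control 1, from 3.54 to 6.01 CPM across controls 2 to 4, and from 1.08 to 2.52 CPM across knockouts, and its log2 fold change was -1.19 without control 1 (adjusted p = 0.0471). The call was lost when control 3 or any 1 of the knockouts was left out, and Ly6c2, a marker of inflammatory monocytes, was called higher without control 1 (1.28, adjusted p = 0.0487). DESeq2 called 3 of the monocyte list lower, and the list median was -0.52, or -0.36 without control 1. With 1 knockout left out, the number of neutrophil markers that fell was 2 to 5. Of 4 platelet markers tested, 1 fell and 3 did not pass. Ppbp stood at 27.99 CPM in control 1 and 0.790 to 2.95 CPM in the other 7 libraries, and Pf4 fell (-1.94, SE 0.44, adjusted p = 0.0200), though not without knockout 2, 3 or 4. Ppbp did not pass (-3.00, adjusted p = 0.0622; -0.94 without control 1), nor did Nrgn (-0.59, adjusted p = 0.405) or Itga2b, the platelet integrin gene, which had a higher mean in knockouts (0.61, adjusted p = 0.110). The platelet genes Gp1bb, Gp9, Gp5 and Treml1 had too few counts to be tested. Pf4 is also made by macrophages.

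For liver, whose hepatocytes make Arg1, the urea cycle genes Cps1 and Otc had 0 to 20 and 0 to 2 counts per library and did not pass the filter. Of the 4 liver genes tested, Serpina1a, a protease inhibitor gene, rose (2.26, SE 0.65, adjusted p in edgeR = 0.0477) from a mean of 28.3 to 135 CPM, and lost its call without control 2, control 3 or any 1 knockout. Cyp2e1, Alb and Apoa2 did not pass, at control means of 365, 11.7 and 3.14 CPM. Injured tubule genes moved with the groups: of 12 tested, 10 fell, and the gene for the injury marker KIM-1, Havcr1, ran at 1603 to 2912 CPM in controls and 329 to 524 CPM in knockouts. Krt8 and Krt20, keratin genes, fell by 1.76 and 3.50 on the log2 scale (adjusted p = 0.000417 and 0.000908), Anxa2, an annexin gene, by 1.76 (adjusted p = 0.000580) and Havcr1 by 2.45 (adjusted p = 0.000580). Immediate early genes, which can respond to tissue digestion, fell in 7 of 10, with Junb at -1.46, Btg2 at -0.86, Atf3 at -1.74 and Jun at -1.28 (adjusted p = 0.00120, 0.00155, 0.00204 and 0.00285). For fibroblasts, another source of Igf1, 0 of 10 markers passed (edgeR; 3 higher at an unadjusted p under 0.05, 1 higher in DESeq2, 0 in limma voom), with a median log2 fold change of 0.57 (0.39 without control 1) and a summed level of 244 to 676 CPM in controls and 546 to 886 CPM in knockouts. Of 11 endothelial markers 3 rose, Prox1, listed for lymphatic vessels, by 2.01, Tek by 1.06 and Kdr by 0.84 (adjusted p = 0.00872, 0.0269 and 0.0306). Tek lost its call without control 1 (adjusted p = 0.0513). Flt4 and Pdpn, also listed for lymphatic vessels, came to 0.40 and -0.20 and did not pass (adjusted p = 0.196 and 0.673). Ccl21a, another such gene, had 0 counts in every library, so Prox1 alone does not stand for lymphatic vessels here. Kit, the single gene tested of a mast cell, basophil and eosinophil list, rose by 0.74 (adjusted p = 0.00568). The other genes of that list did not pass the filter on low counts, so Kit does not stand for those cells. Of 8 lymphocyte markers 0 passed (edgeR; 2 higher at an unadjusted p under 0.05, and 2 higher in DESeq2 and limma voom). The part of these other cells in the differences of the 9 genes was not tested.

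The remaining genes of the IL-4 pathway were taken from a list of 36, of which 26 were tested. Of these, 6 fell, 0 rose (1 at an unadjusted p under 0.05, 0 in DESeq2 and limma voom) and 20 did not pass, while DESeq2 called 11 lower, with a median log2 fold change of -0.37 against -0.01 for all genes. Il13ra1, the partner chain of Il4ra in the second receptor type for IL-4, fell from 96.6 ± 20.9 to 49.7 ± 4.70 CPM (SD, n = 4 each, log2 fold change -0.96, SE 0.16, adjusted p in edgeR = 0.00576). Jak3, a kinase of the first receptor type, fell by 0.51 on the log2 scale (adjusted p = 0.0218), and Stat6 stood at -0.26 (adjusted p = 0.210). Cd36, a fatty acid and scavenger receptor, fell by 1.05 (adjusted p = 0.0139), and Il1rn, which encodes the interleukin 1 receptor antagonist, by 1.92 (adjusted p = 0.0167). Tgm2, a transglutaminase gene like F13a1, and Egr2, a transcription factor of alternative activation, were the other genes that fell. Cd36 and Tgm2 are abundant in this tissue (304 and 714 CPM in controls) and are also made by tubule and endothelial cells.

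The ligands were at or near the limit of detection. Il13 had 0 counts in all 8 libraries, Il4 had 0 to 6 counts, and Retnla, another classical gene of the IL-4 state, had 0 to 2 counts. Cd163, a scavenger receptor, came to a log2 fold change of -2.52 and did not pass (adjusted p in edgeR = 0.0842), at 2.87 CPM in control 1 and 0 to 1.00 CPM in the other 7 libraries. Without control 1, 4 genes of the pathway list fell, and Tgm2 and Egr2 lost their calls (adjusted p = 0.0528 and 0.0764). Without knockout 2 or knockout 4 the count was 3, and Il13ra1 and Cd36 passed whichever library was removed. With 1 library left out, Tgm2 passed only without control 2, and Egr2 only without control 2 or knockout 3. Jak3 failed without control 3 or knockout 3, and Il1rn without knockout 2 or knockout 4.

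Genes listed for the TREM2 programme of lipid-handling macrophages differed in both directions in whole tissue. Of 21 tested, 5 fell, 3 rose and 13 did not pass (6 lower and 6 higher in DESeq2), with a median log2 fold change of -0.24. Spp1, which encodes osteopontin, fell from 16072 ± 5496 to 4751 ± 518 CPM (SD, n = 4 each, log2 fold change -1.76, SE 0.26, adjusted p in edgeR = 0.00309). Lgals3, which encodes galectin 3, fell by 0.80 on the log2 scale, and the lysosomal proteases Ctsl, Ctsb and Ctsd fell by 0.81, 0.59 and 0.71. Apoe, the lipid carrier apolipoprotein E, rose from 221 ± 40.7 to 417 ± 162 CPM (adjusted p = 0.0415), and Mitf, a lysosomal transcription factor gene, and Syngr1 rose by 0.66 and 0.81. Tyrobp, the signalling partner of Trem2, came to a log2 fold change of -0.70 and did not pass (adjusted p = 0.234). Spp1 ran at 10476 to 21949 CPM in controls, and osteopontin is also made by tubule cells. Control means were 638 CPM for Lgals3, 954 for Ctsl, 1831 for Ctsb and 1763 for Ctsd, against 3.67 for Trem2 and 17.5 for Tyrobp. Mitf and Syngr1 were at 10.5 and 19.6 CPM. Which cells these values came from was not tested, so they are not read as changes of a macrophage programme. Without control 1, Apoe and Ctsd lost their calls (adjusted p = 0.0680 and 0.0586), and with knockout 3 removed as well 1 of the list was called higher. Spp1, Ctsl, Lgals3, Ctsb and Syngr1 passed whichever library was removed, while Ctsd passed only without control 2, Apoe failed without control 1, 3 or 4 or knockout 1 or 2, and Mitf failed without control 4 or knockout 3 or 4.

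In arginine metabolism, 2 of 15 genes fell, 0 rose (3 at an unadjusted p under 0.05, 2 in DESeq2, 0 in limma voom) and 13 did not pass, with a median log2 fold change of 0.09. Arg2, the mitochondrial arginase of kidney tubules, measured 40.3, 65.3, 76.3 and 56.5 CPM across controls 1 to 4, while knockouts 1 to 4 gave 32.4, 32.6, 36.2 and 33.0 CPM. It fell by 0.83 on the log2 scale (SE 0.17, adjusted p in edgeR = 0.0144) with no overlap, and passed whichever 1 of the 8 libraries was removed. For Arg2 control 1 was the lowest control, the reverse of Arg1, and the transcripts of the 2 arginases share no window of 50 bases. Srm, the spermidine synthase downstream of ornithine, fell by 0.72 (adjusted p = 0.00303). Nos2, which competes for arginine in inflammatory macrophages, came to a log2 fold change of 0.30 (adjusted p = 0.722).

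Among genes of insulin-like growth factor signalling, those that passed were higher in the knockout. Of 17 tested, 5 rose, 0 fell (0 at an unadjusted p under 0.05, and 0 in DESeq2 and limma voom) and 12 did not pass, with a median log2 fold change of 0.45 against -0.01 for all genes. Irs1, an adaptor below the insulin and IGF1 receptors, rose from 8.98 ± 1.39 to 19.5 ± 2.86 CPM (SD, n = 4 each, log2 fold change 1.12, SE 0.17, adjusted p in edgeR = 0.00361). Ghr, the growth hormone receptor, rose by 0.56 (adjusted p = 0.0307), the binding protein gene Igfbp5 by 1.59 (adjusted p = 0.0324), Igfbp1 by 1.73 (adjusted p = 0.0385) and Stat5b, a mediator of growth hormone signalling, by 0.36 (adjusted p = 0.0381). Igf1r, the receptor itself, came to a log2 fold change of -0.05 (adjusted p = 0.899). Without control 1, 3 of the 5 were called (Irs1, Ghr and Stat5b), and with knockout 3 removed as well 1 was called. Without control 3 or knockout 3 the count was 2, without control 2 or control 4 it was 3, and without knockout 1, knockout 2 or knockout 4 it was 1, with Irs1 passing in each of these fits.

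**Figure D4:**
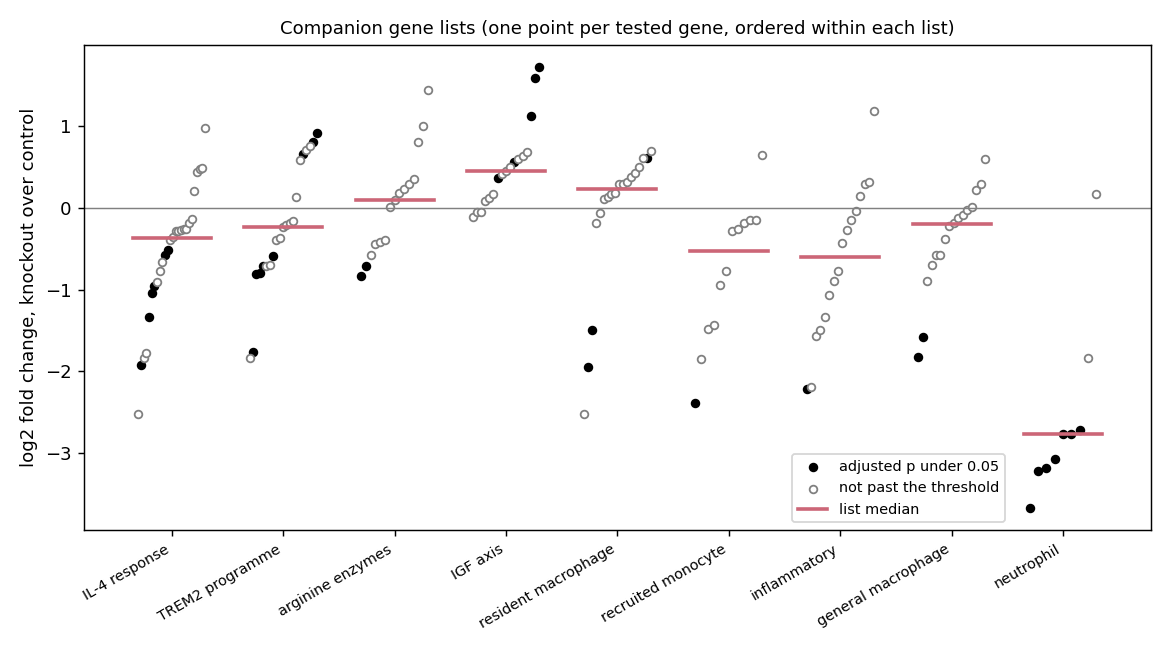
Log2 fold changes, knockout over control, of the tested genes of 9 companion lists, 1 point per gene, black where the adjusted p was under 0.05, with the list median as a line. The IGF genes have a median of 0.45 and the neutrophil markers one of -2.77 (0.37 and -1.71 without control 1), and the TREM2 programme holds points past the threshold on both sides of 0.

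Other macrophage states were read from 2 further lists. Of 18 genes of resident macrophages 2 fell and 1 rose, beside 6.28% and 6.45% of all genes. DESeq2 called 3 lower and 1 higher, and the median log2 fold change was 0.24. Mertk, a receptor for apoptotic cells, rose by 0.61 (adjusted p in edgeR = 0.0262; adjusted p = 0.0517 without control 1, and not passed without control 3 or knockout 2, 3 or 4), and Selenop, a selenium carrier that tubules also make, fell by 1.49 (adjusted p = 0.00292). Pf4 was the other gene that fell. C1qa, C1qb and C1qc, which encode complement C1q of macrophages, came to 0.29, 0.18 and 0.31 and did not pass (adjusted p = 0.551, 0.636 and 0.501). Of 16 genes of inflammatory macrophages 1 fell, near the share of 6.28% of all genes (4 lower at an unadjusted p under 0.05, and 5 lower in DESeq2). It was Socs3, a feedback inhibitor of cytokine signalling (-2.21, SE 0.28, adjusted p = 0.00184). The median of that list was -0.60, or -0.37 without control 1, and Il1b and Ccl2 came to -1.33 and -0.89 and did not pass (adjusted p = 0.0873 and 0.0887), with -0.70 and -0.55 without control 1.

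Of 12 close relatives of the 9 genes tested, 4 fell, 0 rose (1 at an unadjusted p under 0.05, 0 in DESeq2 and limma voom) and 8 did not pass. The list median of -0.34 turned to 0.16 without control 1. Beside Arg2 and Tgm2, those that fell were Tgm1, a transglutaminase of epithelia (-1.80, SE 0.24, adjusted p in edgeR = 0.00240), and Trem1, the activating receptor of neutrophils and monocytes (-2.67, SE 0.68, adjusted p = 0.0307). Tgm1 passed whichever library was removed, while Trem1 was at -1.56 without control 1 (adjusted p = 0.0511) and also failed without knockout 1, 2 or 4. Tgm2, with 1 library left out, passed only without control 2. Chil1, another chitinase-like gene, came to a log2 fold change of 0.44 (adjusted p in edgeR = 0.765), which turned to -0.81 without knockout 1. Mrc2, the collagen receptor related to Mrc1, had one of 0.72 (adjusted p = 0.161), and Folr1, the folate receptor of the proximal tubule, one of 0.42 (adjusted p = 0.235). Folr1 stood at 219 to 488 TPM against 1.92 to 4.48 TPM for Folr2. No 50-base window of the Folr2 or Mrc1 transcript occurred in that of Folr1 or Mrc2.

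The genes whose levels most resembled those of Arg1 and Chil3 were taken by Pearson correlation of log2 CPM over the 8 libraries, among 14102 genes. For Arg1 they were Zwint, a kinetochore gene (r = 0.981), Arl4c, a small GTPase (r = 0.979), Rars, the arginyl-tRNA synthetase (r = 0.978), Ube2g1, a ubiquitin-conjugating enzyme (r = 0.975), and Denr, a translation factor (r = 0.974). Zwint, Arl4c and Rars fell (log2 fold changes -0.69, -0.99 and -0.56, adjusted p in edgeR = 0.0442, 0.0432 and 0.0213), and the other 2 did not pass. For Chil3 they were Sec1 (r = 0.987), Itgam (r = 0.986), Lilr4b, an inhibitory receptor of myeloid cells (r = 0.985), Emp1, an epithelial membrane protein (r = 0.972), and Lamb3, a laminin chain (r = 0.972). Itgam and Lamb3 fell (-1.58 and -1.33, adjusted p = 0.0384 and 0.0342) and the other 3 did not pass. All 10 had their highest value in control 1, and with the group means removed the correlations ran from 0.935 (Ube2g1) to 0.985 (Itgam). These correlations share the 8 libraries and rest in part on control 1, and they carry no test.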

How the data were processed

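Kidney RNA in 8 mouse libraries (4 control, 4 knockout, all after I/R) was analysed from the authors' deposited table of raw counts per gene, with whole numbers, no normalization and a gene length column. Per the submitters' processing notes, the tools were HISAT2 2.2.1, Trim Galore 0.6.2, Salmon 1.10.2 and FastQC and the build mm39; for the counting step, annotation and filters the sources used here say nothing. The library kit, NEBNext Ultra, keeps no strand. Genes were taken by symbol, as the table's identifier column was set aside. Of values from 1 to 20, 68.7% to 70.9% were even, against 49.5% to 50.4% of those above 100 (the cause was not tested).

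Genes were tested in R 4.3.3 with edgeR 4.0.16: filterByExpr (minimum count 10), TMM factors, a quasi-likelihood fit over all 8 libraries and Benjamini-Hochberg adjustment over 15000 genes, with calls at an adjusted p under 0.05. CPM use the TMM factors, and log2 CPM a prior count of 2. In counts simulated from this comparison over 14838 genes tested, 65.7% of 2-fold and 91.8% of 4-fold changes were recovered, and 6.1% of the calls were false. The changed genes were drawn over all levels, and no library was made to stand apart as control 1 does. The recovery is thus an average and does not hold for single members. Alternatives included DESeq2 1.42.0 and limma 3.58.1 voom. No label says that libraries came from separate animals, so p-values cover only spread among these 8, part of which may be technical. Samples with the same replicate number did not deviate together.

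The 9 genes and the 18 companion lists were chosen with earlier results of these data known. Named beside the 9 were the called genes of each list (up to 4 by smallest p), 6 paralogs, 4 reference genes and the 5 genes closest to Arg1 and to Chil3 by correlation (predicted genes, Rik clones and pseudogenes left out). Others were named after their values were seen: Stat6, Il4, Il13, Retnla, Cd163, Tyrobp, Nos2, Igf1r, Csf1r, Ly6c2, Ppbp, Nrgn, Itga2b, Mmp8, the C1q genes, Il1b, Ccl2, Flt4, Pdpn, Ccl21a, the nephron and liver markers, and list genes beyond the 4.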

Additional observations from a re-analysis of the deposited data

Results flagged for a closer look

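Within the 4 controls, 3 values were flagged by the share of the group's range that lies between the extreme library and its nearest neighbour (above Dixon's 95% limit for 4 samples). Chil3 in control 1 was 73.7 CPM, with a gap of 0.909 of the range, and F13a1 in control 1 was 25.9 CPM, with a gap of 0.884. Folr2 in control 4 was 2.85 CPM, with controls 1 to 3 at 2.38 to 2.39 CPM, a gap of 0.977 of the range. This flag rests on the closeness of controls 1 to 3. Control 4 had 88 counts, against 85, 76 and 85, and knockouts 2 and 4 were at 2.81 and 2.79 CPM. Chance flags about 1 in 20 groups, and 18 groups (9 genes in 2 groups) were examined. The summed neutrophil markers (207 CPM in control 1, with 32.4 to 57.9 CPM in controls 2 to 4) and the platelet gene Ppbp (27.99 CPM, with 1.101 to 2.949 CPM in controls 2 to 4) were also highest in control 1, and their part in the Chil3 and F13a1 values was not tested.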

How the results depend on the processing

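Over 19 alternatives, 8 of the 9 genes kept their direction. Folr2 ran from -0.232 (without knockout 4) to 0.082 (without knockout 3) when 1 library was left out, and turned to 0.0606 when control 1 and knockout 3 were both removed. Chil1, the relative of Chil3, turned to -0.217 in voom, -0.0171 with the replicate block and -0.257 in voom with sample quality weights, and ran from -0.808 (without knockout 1) to 1.14 (without control 1) when 1 library was left out. The count of members called lower (2) was 6 in DESeq2 (8.77% of all genes) and 0 in limma voom. It was 0 with the replicate block (2.79% of all genes called lower), 0 with the macrophage marker covariate and 1 without control 1 and knockout 3. At an unadjusted p under 0.05, 5 were lower in voom, 4 with the replicate block and 2 with the covariate. No share of all genes was taken at that level in these fits. Leaving out 1 library gave 0 to 3 called lower and 0 to 1 called higher, the latter Igf1 without control 2. The adjusted p ran from 0.00120 to 0.0846 for Arg1 and from 0.0130 to 0.262 for Chil3. The number of genes called (1909) was 3013 in DESeq2, 865 with the replicate block, 1035 with the marker covariate and 1045 without control 1 and knockout 3, and 907 to 1984 when 1 library was left out. Correlations of the deviations of same-numbered libraries ran from -0.198 to 0.153, so the numbers were not taken as pairs. In the replicate block fit Arg1 came to a log2 fold change of -2.44 (adjusted p = 0.0654) and Chil3 one of -1.83 (adjusted p = 0.139). Quality weights and the joint removal of control 1 and knockout 3 were chosen after seeing the data. The causes were not tested. Counting error limits the lowest genes, such as F13a1 with 10 to 90 counts in the knockouts.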
